A study of Rattus norvegicus with 7 samples.

Results

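The blood-cell microRNAs (miRNAs) were followed in pancreatic islets, the hormone-secreting cell clusters of the pancreas, of ageing rats. The set was chosen by name. It holds the leukocyte miRNAs rno-miR-142-3p, rno-miR-142-5p, rno-miR-150, rno-miR-155 and rno-miR-223 and the erythroid miRNAs rno-miR-144 and rno-miR-451 (the prefix, for rat, is left out below). Of these 7 names, 6 were among the 677 rat miRNAs on the array, 4 of them leukocyte and 2 erythroid. No rat probe carried the name miR-155, which was not analysed here. Islets came from male Wistar rats aged 12 months (4 rats, numbered 2, 4, 10 and 16) or 3 months (3 rats, numbered 9, 11 and 13). They were obtained by collagenase digestion and received no treatment. The methods also describe culture of isolated islets in medium, without giving a duration. Each rat gave 1 single-colour array, and the comparison asked how the miRNA profile differed between the ages.

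miRNAs are short RNAs that pair with messenger RNAs mainly through their seed, bases 2 to 8, and lower the output of the paired message. miR-142 is made throughout the blood lineage and both of its strands are used, miR-150 is typical of mature lymphocytes, miR-223 of neutrophils and other myeloid cells, and miR-155 is induced in activated immune cells. miR-144 and miR-451 are cut from neighbouring hairpins of a single primary transcript that is switched on in maturing red cells, and miR-451 is unusual in being made by Argonaute 2 instead of Dicer. Islets contain resident macrophages and dense capillaries, so isolated islets carry blood-derived cells along with endocrine cells.

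Mature sequences show whether members share a seed, shown in capitals, and were taken from the RefSeq table (build GRCr8) for 5 of the 6 miRNAs on the array.
miR-142-5p: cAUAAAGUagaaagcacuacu
miR-142-3p: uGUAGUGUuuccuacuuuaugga
miR-223: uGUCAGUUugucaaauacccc
miR-144: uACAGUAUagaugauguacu
miR-451: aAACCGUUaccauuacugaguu
The 5 seeds all differed, and no other rat miRNA in the table had any of them. Bases 2 to 7 of miR-144 were shared with miR-101a-3p and miR-101b-3p. The mature strands of miR-142 lie on the plus strand at chr10:73055119-73055139 (5p) and chr10:73055155-73055177 (3p), that of miR-144 at chr10:63459446-63459465 and that of miR-451 at chr10:63459585-63459606, with 89 bases between the annotated miR-144 and miR-451 genes. That of miR-223 lies at chrX:65151450-65151470. miR-150 was not matched in the table.

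The arrays of the 12-month-old rats were brighter. The upper quartile of raw signal over all miRNAs was 67.0 to 73.8 units at 12 months and 37.4 to 55.4 at 3 months, and 278 to 296 miRNAs were detected per array at 12 months against 246 to 272 at 3 months. Differences below are therefore on the quantile-normalised log2 scale unless raw units are named. Over the 272 miRNAs tested the median difference was 0.06 (log2), and without normalisation it was 0.79. A level in whole islets cannot tell more cells of a type from more RNA per cell.

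Among the leukocyte miRNAs, both strands of miR-142 were higher at 12 months in every rat, without passing the adjusted threshold, while miR-150 and miR-223 overlapped between the ages. Both erythroid miRNAs had a lower mean at 12 months and overlapped. None of the 6 members had an adjusted p under 0.05 (limma, Benjamini-Hochberg), against 1.47% of all tested miRNAs. At an unadjusted p under 0.05 there were 2 members, both higher at 12 months, where 21.7% of all tested miRNAs passed in either direction and 9.19% were higher. The ages did not overlap for the same 2 members, beside 17.3% of all tested. One of these, miR-142-5p, entered the test only because all 12-month arrays detected it, and admission through the higher group favours such a difference. Among the 5 members detected on all 7 arrays, 1 passed (miR-142-3p), where 18.5% of the 238 such miRNAs passed, 6.3% were higher and 15.1% did not overlap.

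**Figure D1:**
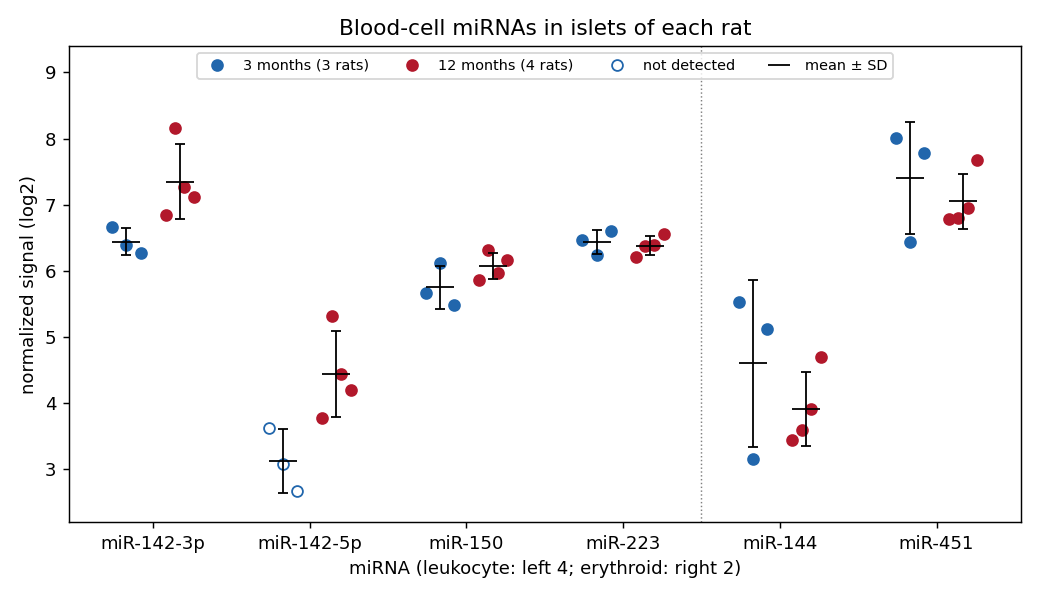
Normalised log2 signal (vertical axis) of the 6 blood-cell miRNAs (horizontal axis) in each rat aged 3 months (blue, 3 rats) or 12 months (red, 4 rats), with bars for mean ± SD and open circles where a miRNA was not detected. The ages separate for miR-142-3p and miR-142-5p and overlap for the other 4, and levels of different miRNAs are not comparable.

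rno-miR-142-3p, the more studied strand of this blood-lineage hairpin, gave total gene signals of 137, 390, 175 and 180 units in 12-month-old rats 2, 4, 10 and 16. In 3-month-old rats 9, 11 and 13 it gave 76.3, 78.1 and 47.5 units. All 12-month-old rats lay above all 3-month-old rats, also after normalisation, and rat 4 was the highest. After normalisation the levels were 7.35 ± 0.57 (log2, SD, n = 4) and 6.44 ± 0.20 (n = 3). The difference was 0.91 ± 0.30 (log2, SE; 95% interval 0.21 to 1.60), with an unadjusted p of 0.0169 and an adjusted p of 0.118 in limma. The exact permutation test over the 35 splits of the rats gave a two-sided p of 0.0571 on these values, where the smallest possible is 0.0286. Both probes were higher at 12 months in raw units. The first gave 97.3 to 276 against 33.6 to 54.3 and the other 39.9 to 114 against 13.8 to 23.8. Less the median unnormalised difference over all tested miRNAs, the probe differences were 0.85 and 0.79 (log2).

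rno-miR-142-5p, the opposite strand, gave 15.9, 51.5, 22.4 and 23.3 units in the 12-month-old rats. In the 3-month-old rats it gave 9.93, 7.74 and 4.31 units and was detected in none of the 3, against 4 of 4 at 12 months. The ages did not overlap, and rat 4 was again the highest. The fitted difference was 1.31 ± 0.38 (log2, SE; 95% interval 0.44 to 2.18), or 2.48-fold, with an unadjusted p of 0.00819 and an adjusted p of 0.0769 in limma, and the exact permutation p was 0.0571. These p-values belong to a miRNA that passed the detection filter through its higher age alone. The fold rests on 3-month signals that were not detected and is no lower limit, since on all 3 arrays they exceeded the lowest detected signal. With normexp background correction the difference was 0.35 (log2, unadjusted limma p 0.0724), and in the deposited matrix it was 0.79. Without rat 4 the differences were 1.02 for miR-142-5p and 0.63 for miR-142-3p (unadjusted limma p 0.0103 and 0.0149). Without rat 11 they were 1.29 and 0.89 (unadjusted limma p 0.0323 and 0.0543). Without rat 13 they were 1.08 and 0.82 (unadjusted limma p 0.0359 and 0.0549), so miR-142-3p missed 0.05 in both cases. Over the 4 rats in which both strands were detected, the normalised difference between them ranged from 2.82 to 3.07 (log2).

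rno-miR-150, the lymphocyte miRNA, gave 69.9, 109, 73.1 and 86.6 units at 12 months and 40.1, 66.1 and 30.0 units at 3 months. Its raw signals did not overlap, but the 12-month arrays were brighter, and after normalisation rat 11 lay among the 12-month-old rats. The raw signals of miR-223 did not overlap either, and the share of all miRNAs without overlap in raw units was not counted. The normalised difference was 0.33 ± 0.20 (log2, SE; 95% interval -0.13 to 0.78; adjusted limma p 0.416). Most of its signal came from 1 of its 2 probes, at 65.1 to 101 units at 12 months and 27.1 to 60.5 at 3 months, while the other gave at most 7.68 units.

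rno-miR-223, the myeloid miRNA, gave 87.3, 113, 101 and 115 units at 12 months and 65.6, 70.2 and 60.02 units at 3 months. Normalised, it was 6.38 ± 0.14 (log2, SD, n = 4) at 12 months and 6.43 ± 0.18 (n = 3) at 3 months, and the ages overlapped. The difference was -0.05 ± 0.15 (log2, SE; 95% interval -0.41 to 0.30; adjusted limma p 0.943). Its sign depended on the scaling, being 0.03 with the 75th percentile of all miRNAs and 0.67 with none. It varied little, with a range of 0.39 (log2) over the 7 rats, and only 18 of the 272 tested miRNAs had a smaller one.

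rno-miR-144, the first miRNA of the erythroid cluster, gave 13.7, 15.6, 16.9 and 29.5 units at 12 months and 34.3, 8.50 and 22.4 units at 3 months. The 3-month-old rats held both the highest value, in rat 9, and the lowest, in rat 11. The normalised difference was -0.69 ± 0.56 (log2, SE; 95% interval -1.98 to 0.60; adjusted limma p 0.565). No spot of 1 of its 2 probes was well above background on any array, so its signal rested on the other.

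rno-miR-451, the second miRNA of that cluster, gave 130, 156, 148 and 259 units at 12 months and 190.1, 78.2 and 143.8 units at 3 months. The ages overlapped, with rat 11 the lowest of all 7 and rat 16 the highest in raw units. The normalised difference was -0.35 ± 0.40 (log2, SE; 95% interval -1.27 to 0.56; adjusted limma p 0.706). Without normalisation it was 0.38.

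The erythroid values depended on rat 11. Without this 3-month-old rat the differences were -1.41 for miR-144 and -0.84 for miR-451 (log2; unadjusted limma p 0.00784 and 0.0254, adjusted p 0.0882 and 0.157). Without rat 9 they were -0.23 and -0.06. The rows of the slide also gave unlike values. In row 1, with rats 2 and 4 against rat 9, the difference was -2.004 for miR-144 and -1.21 for miR-451, while in row 2, with rats 10 and 16 against rats 11 and 13, it was 0.16 and 0.21. For the miR-142 strands the rows gave 0.84 and 0.86 (3p) and 0.92 and 1.45 (5p), for miR-150 0.43 and 0.27, and for miR-223 -0.17 and 0.05.

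miR-144 and miR-451 varied together. Pearson's r between their normalised log2 levels was 0.99 over the 7 rats, and each was the miRNA most like the other among the 238 detected on all arrays. The normalised difference between them ranged over 0.87 (log2), where miR-144 alone ranged over 2.37 and miR-451 over 1.57. miR-223 was next for both (r = 0.84 with miR-144 and 0.85 with miR-451), ahead of miR-7b (0.73 and 0.76). These are descriptions over 7 arrays that share their normalisation.

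The leukocyte miRNAs detected on all arrays did not form a similar group. miR-142-5p was not among them and was left out of this ranking. The normalised difference between the 2 strands of miR-142 ranged over 0.78 (log2), with the undetected 3-month signals of miR-142-5p included. miR-142-3p alone ranged over 1.89 and miR-142-5p over 2.66. The miRNAs most like miR-142-3p were miR-10a-5p, miR-199a-3p and miR-214 (r = 0.86, 0.85 and 0.84), and those most like miR-150 were miR-143, miR-29a and miR-10a-5p (r = 0.93, 0.86 and 0.83). miR-142-3p and miR-150 had r = 0.71 with each other, while miR-223 had r = -0.09 with miR-142-3p and -0.38 with miR-150. The miRNAs most like miR-223 were miR-451, miR-144 and let-7i (r = 0.79 for the last).

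The mean of the 4 leukocyte miRNAs was 5.67 to 6.54 (log2) over the 12-month-old rats and 5.25 to 5.605 over the 3-month-old rats. The mean of miR-144 and miR-451 was 5.11 to 6.18 and 4.79 to 6.76. The leukocyte mean minus the erythroid mean was 0.56, 1.34, 0.58 and -0.17 in rats 2, 4, 10 and 16 and -1.16, 0.66 and -1.20 in rats 9, 11 and 13. Rats 9 and 13 lay below all others, while rat 11 lay among the 12-month-old rats. The age difference of this contrast was 1.14 (log2), with the undetected 3-month signals of miR-142-5p included. Both strands of miR-142 enter its leukocyte mean, with differences of 0.91 and 1.31, beside 0.33 for miR-150 and -0.05 for miR-223. The contrast was not tested since the members were chosen by name with earlier results known. It is taken within each array and without the fit. It was therefore 1.12 with whole arrays unscaled or scaled by a factor, and other fits left it at 1.14. These settings could not show if it was stable. With normexp background correction it was 0.61, and in the deposited matrix 0.89. It stayed above 0 in every setting that could change it, but all of these kept both strands of miR-142. No version without miR-142-5p was computed, so its hold without that strand was not tested. Array weights, which moved the fitted difference of miR-144 to 0.093 and of miR-451 to 0.23, did not enter the contrast.

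**Figure D2:**
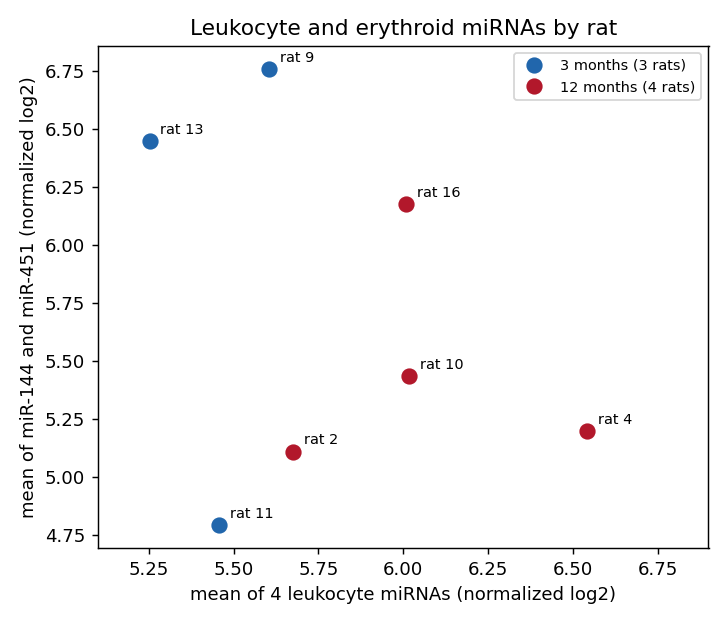
Mean normalised log2 signal of the 4 leukocyte miRNAs (horizontal axis) against that of miR-144 and miR-451 (vertical axis), 1 point per rat, 3 months in blue and 12 months in red. Rats 9 and 13 stand at the upper left, and rat 11, also 3 months old, has the lowest erythroid mean of all 7 (4.79).

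Of the other miRNAs known from the same lineages, those that passed an unadjusted threshold were lower at 12 months, as were 12.5% of all tested miRNAs. Of 8 further miRNAs found in leukocytes, 8 were tested, 0 were higher and 2 lower at an unadjusted limma p under 0.05 (miR-181a at -1.12 and miR-181b at -1.21, log2), and the median difference was 0.08 beside 0.06 over all tested. miR-146a, induced in inflammation, was at 0.10. Of 6 further miRNAs abundant in red cells, 5 were on the array and tested, 0 were higher and 3 lower (miR-15b at -0.79, miR-92a at -0.75 and miR-16 at -0.38), with a median of -0.38. The mean of these 5 was 8.77 to 9.01 (log2) at 12 months and 9.13 to 9.60 at 3 months, without overlap. Taken singly, only 1 of the 5 did not overlap, beside 17.3% of all tested miRNAs, and miR-185 was at 0.006. Many of these are made in other cells too. No miRNA of either list had an adjusted p under 0.05.

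**Figure D3:**
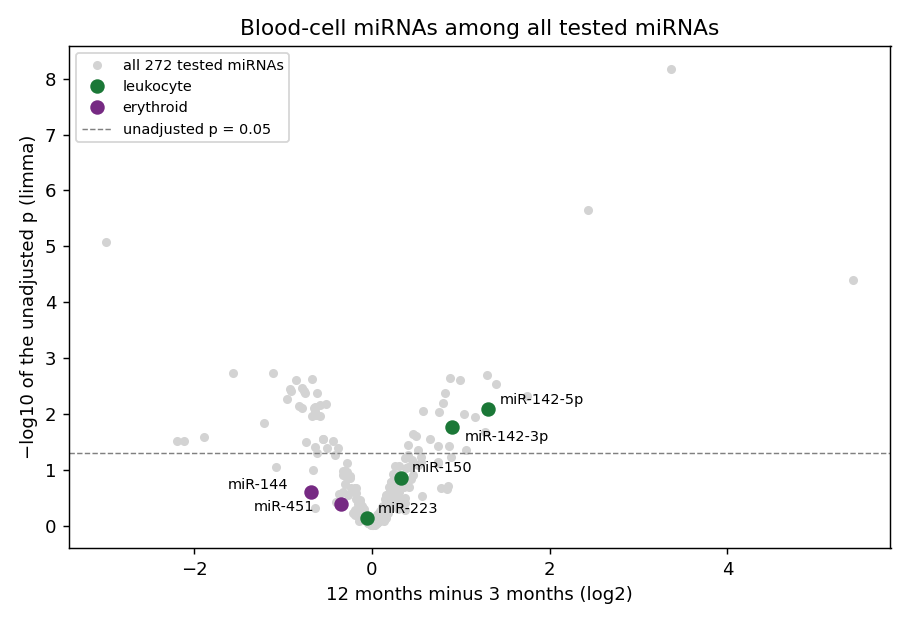
Difference between the ages (12 minus 3 months, log2, horizontal axis) against −log10 of the unadjusted limma p (vertical axis) for the 272 tested miRNAs in grey, with leukocyte members in green and erythroid members in purple. The miR-142 strands lie above the dashed line at 0.05 and the other 4 members below it.

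Markers of other islet and pancreatic cells did not move in a single direction. Of 5 mesenchymal miRNAs, 4 were higher at 12 months at an unadjusted limma p under 0.05, beside 9.19% of all tested miRNAs, and the mean of the 5 was 7.03 to 7.79 (log2) at 12 months and 5.93 to 6.79 at 3 months. Of 4 endothelial miRNAs, 3 were tested and 2 were higher, with means of 7.04 to 7.24 and 6.68 to 6.998. In each of these 2 lists, 1 of the miRNAs that were higher was not detected on all 7 arrays (miR-145 and miR-126*). All 3 acinar miRNAs were lower, beside 12.5% of all tested, with means of 4.92 to 8.39 and 8.22 to 9.51. None of the 3 endocrine miRNAs passed, with means of 12.69 to 13.004 and 12.85 to 13.14, and all 3 were detected on every array. Quantile normalisation sets values by rank, and miR-7a had the same value (14.81, log2) in all 3-month-old rats. It could therefore hardly show a difference. In raw units, with brighter 12-month arrays, miR-7a had a mean of 37677 at 12 months and 20158 at 3 months. Each miRNA of these lists was detected on at least 1 array. The part of these cells in the blood-cell values was not tested.

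The passenger strand miR-150* was detected on all 7 arrays, with a difference of 0.14 ± 0.27 (log2, SE; adjusted limma p 0.899). miR-144*, miR-223* and miR-451* were detected on none.

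**Figure D4:**
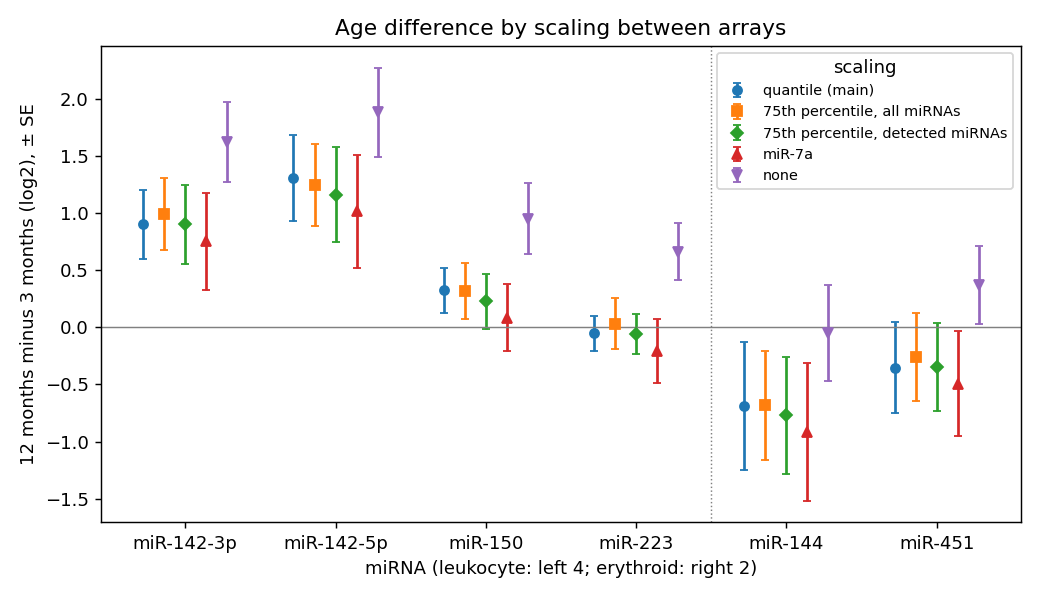
Difference between the ages (12 minus 3 months, log2, vertical axis, ± SE) of each member (horizontal axis) under 5 ways of scaling the arrays. The miR-142 strands are above 0 under all 5. miR-144 is below 0 under all 5, but only at -0.05 ± 0.42 without scaling, while miR-223 and miR-451 change sign between scalings.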

How the data were processed

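Islet RNA of 7 male Wistar rats was hybridised to Agilent single-colour miRNA arrays, and groups follow the age in the labels. The deposited scanner files hold intensity values from Agilent Feature Extraction 10.7.3.1 with a detected/not detected flag per miRNA, and the deposited matrix of 307 miRNAs holds log2 values that the authors quantile-normalised. The 7 members and all lists were chosen with earlier results of these data known. Members were matched by name, each with 2 probes of 10 spots, star strands apart. The total gene signal was floored at 1, put on the log2 scale and quantile-normalised over 677 rat miRNAs. The 272 miRNAs that all arrays of either age detected were tested with limma 3.58.1 (R 4.3.3), with Benjamini-Hochberg adjustment at 0.05. The fit was tested on simulated data. Every member is named, with the 3 miRNAs most like each member detected on all arrays. With 7 arrays the precision is limited by their number, and no source says more on how separate the samples were than 1 rat each. The fits were repeated under 15 other settings and with each rat left out in turn. A further 2 settings, chosen after seeing the data, left out spots that the software marked as outliers.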

Additional observations from a re-analysis of the deposited data

How the results depend on the processing

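miR-142-3p, miR-142-5p and miR-150 kept their direction under every alternative in which they were tested. The size for miR-142-5p, 1.31, fell to 0.35 with normexp (0.37 without spots marked as outliers) and 0.79 in the deposited matrix. Without normalisation, where the median of all miRNAs was 0.79, miR-142-3p was at 1.63, miR-142-5p at 1.89 and miR-150 at 0.95 (log2; adjusted limma p 0.00689, 0.00538 and 0.0280), miR-223 turned to 0.67 and miR-451 to 0.38, and 4 members passed with and without adjustment, where 62.9% and 71.0% of all 272 tested miRNAs did. miR-223 also turned to 0.42 with the mean processed signal, where a single spot marked as an outlier on the array of rat 10 read 4497 units against a mean of 90.9 for the rest of its probe; without marked spots it did not turn. It turned to 0.090 with normexp (0.075 without marked spots), to 0.031 with the 75th percentile of all miRNAs and to 0.069 with array weights, which also turned miR-144 to 0.093 and miR-451 to 0.23; the cause was not tested. Members with an unadjusted p under 0.05 numbered 1 with normexp (all tested: 48 of 272), also without marked spots (49 of 272). The number was 0 scaled to miR-7a (40 of 271) and 1 among miRNAs detected on all arrays (44 of 238), without miR-142-5p. With each rat left out, it was 1 to 4, being 4 without rat 11 (58 of 272) and 1 without rat 13 (43 of 273). The 4 were miR-142-5p, miR-150, miR-144 and miR-451, without miR-142-3p, and the 1 was miR-142-5p. Differences then ranged from -0.16 to 0.033 (miR-223), 0.63 to 1.05 (miR-142-3p), 1.02 to 1.55 (miR-142-5p) and 0.20 to 0.51 (miR-150). Others ranged from -1.41 to -0.23 (miR-144), -0.84 to -0.06 (miR-451) and 0.83 to 1.76 (leukocyte minus erythroid). The methods' t-test gave 49 miRNAs under its threshold and 3 after Benjamini-Hochberg adjustment. Array weights moved the adjusted calls over all miRNAs from 4 to 48. With slide row as a blocking term, miR-142-3p was at 0.85 and miR-142-5p at 1.24. No paired analysis was possible because the ages share no replicate number.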
